A study of Bos taurus with 18 samples.

Results

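The 78 genes described here are named by their symbols on the bovine array. They take in the cyclins A, B, D and E, the cyclin-dependent kinases (CDKs), and the MCM, ORC and GINS families of DNA replication. The BUB, AURK and PLK families of mitosis, the CENP proteins of the centromere and PCNA also belong, as do the CDC genes, whose roles vary. These 78 of 9155 genes with a probe set of 1 listed gene were chosen by symbol and not by their values. They have 115 of the 24016 probe sets tested, and each gene is given by its brightest probe set over all arrays. For 12 of them the symbol is shared but the known role lies elsewhere, such as splicing or chaperone work, and these are described apart. The CDCA genes, MCMBP and CCNDBP1 (7 genes) lack the digit the rule asks for and were set aside.

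The RNA came from bovine blastocysts of mixed breed, made in vitro with sex-sorted semen and frozen on day 7 after insemination. Each of 18 arrays held the pooled RNA of 60 blastocysts of 1 sex sired by 1 bull, with 3 arrays for females and 3 for males of bull 1, of bull 2 and of bull 3. No group was treated, and each bull is a single sire, so that a bull stands for itself and not for a breed. Separate cultures are not named for the 3 pools of a group, and the p-values then reflect only how far such pools differ, which may be technical.

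A dividing cell passes from G1 into DNA synthesis when D and E cyclins switch on their CDKs. Origins are licensed beforehand by the origin recognition complex (ORC), CDC6 and the MCM helicase, and fire when CDC7, CDC45 and GINS join. Cyclin B with CDK1 then starts mitosis, Aurora and Polo kinases build the spindle, and the BUB proteins hold back CDC20 and the anaphase-promoting complex until every centromere is attached. A blastocyst is an embryo in rapid division, with an outer trophectoderm and an inner cell mass.

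The arrays showed some of the blastocyst's own markers. Of the markers listed, 6 of 9 were measured for the trophectoderm, 3 of 4 for the inner cell mass and 3 of 4 for the primitive endoderm. CDX2, GATA3, TFAP2C, NANOG and SOX17 were not among those measured. Trophectoderm KRT18 had a mean log2 signal of 14.04 and PTGS2 11.39, and inner cell mass POU5F1 had 11.93 and SOX2 8.70. Of the other trophectoderm markers, ELF5 was dim at 3.64 and KRT8 stood at 5.77. In each lineage list 1 marker differed by sex. IFNT2, an interferon tau of the trophectoderm, was higher in females by 0.59 log2 (adjusted p = 0.000678). STAT3 of the inner cell mass list was also higher in females, by 1.21-fold (0.00205), while GATA4 of the primitive endoderm was higher in males by 1.16-fold (0.0324). The others were not called, 5 of 6 in the trophectoderm and 2 of 3 in each other list. Females minus males, ATP1B1 had 0.17, ELF5 0.13, KRT8 0.03, KRT18 -0.0 and PTGS2 -0.01 log2. POU5F1 and SOX2 had 0.0 and -0.10, and GATA6 and PDGFRA had 0.07 and -0.10.

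Among cells that could be carried along, the mean signal of 9 cumulus and granulosa markers ran from 5.37 to 6.01 on the female arrays and from 5.21 to 6.06 on the male arrays. Of these, CYP19A1 and DCN were higher in females (1.47-fold and 1.26-fold) and COL1A2 in males (1.19-fold). The mean hides wide differences, with HAS2 at 9.90 and COL1A2 at 8.92 but PTX3 at 2.42. POSTN ran from 2.75 to 6.56 in females and from 3.25 to 6.58 in males. VIM ran from 3.42 to 5.85 and from 3.28 to 6.76, and neither was called by sex. The mean of 4 blood markers ran from 4.78 to 5.41 and from 4.77 to 5.22. HBB, at a mean of 7.95, was higher in females by 1.75-fold (adjusted p = 0.0163), as was the dim HBA by 1.19-fold, CD68 was higher in males by 1.35-fold without overlap (0.000104), and PTPRC was dim at 2.84. The mean of 7 oocyte markers ran from 4.73 to 5.46 and from 4.74 to 5.16, with OOEP higher in females by 1.28-fold. That of 5 sperm markers ran from 6.32 to 6.73 and from 5.99 to 6.4. PRM1 was higher in females by 3.32-fold without overlap (adjusted p = 1e-07) and TNP1 by 1.84-fold, both beyond any difference among the 78 genes, while ODF2 and SPA17 were higher in males by 1.19-fold and 1.21-fold. The part of such cells or lineages in the sex differences of the 78 genes was not tested.

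Array medians lay between 5.33 and 5.49. A total of 4 arrays had a wide spread of signals relative to the others (an interquartile range of 0.267 to 0.349 log2, against 0.168 to 0.198 for the other 14), namely female bull 1 replicate 3, male bull 1 replicate 2, male bull 2 replicate 1 and male bull 3 replicate 3. XIST, the RNA of the inactive X chromosome, was between 8.87 and 9.57 in females and between 5.93 and 7.28 in males, so that every array matched its label.

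The first question was whether the division machinery differed between female and male embryos. Of the 78 genes, 14 differed, 6 higher in females (CENPI, CDK3, CENPS, CDC37L1, GINS4 and CDC34) and 8 higher in males (CENPX, CENPO, CDC6, CCND2, ORC3, MCM7, BUB1 and AURKB). All 14 differences were small, from 1.11-fold to 1.37-fold. The count is 17.9% of the members, where 15.6% of all probe sets (8.12% higher in females and 7.47% higher in males) and 20.8% of the brightest probe sets of each gene (11.5% and 9.31%) were called, so it is close to the background. Of the brightest probe sets of autosomal genes, 19.1% were called, 9.52% higher in females and 9.61% in males. The median difference of the 78 genes, females minus males, was -0.004 log2, and that of all probe sets was -0.026. The median absolute difference was 0.112 log2, against 0.099 over the brightest probe sets of all genes. The test was limma's on 9 arrays against 9, with p-values adjusted by Benjamini-Hochberg over all probe sets and a threshold of 0.05. In RNA of whole embryos, fewer cells in a phase or of a type and less RNA per cell cannot be told apart.

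The count of 14 changed when a bull or the noisiest arrays were left out. It was 10 without bull 1, 6 without bull 2 and 7 without bull 3, in fits that have fewer arrays. Without the 4 arrays of wide spread it was 22 (13 higher in females and 9 in males), which kept 13 of the 14 calls. The share of all probe sets called in these fits is not given here, so the changes do not set the members apart from other genes. The calls of CENPI, CENPX and CDC37L1 held in each of 31 alternative fits.

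**Figure D1:**
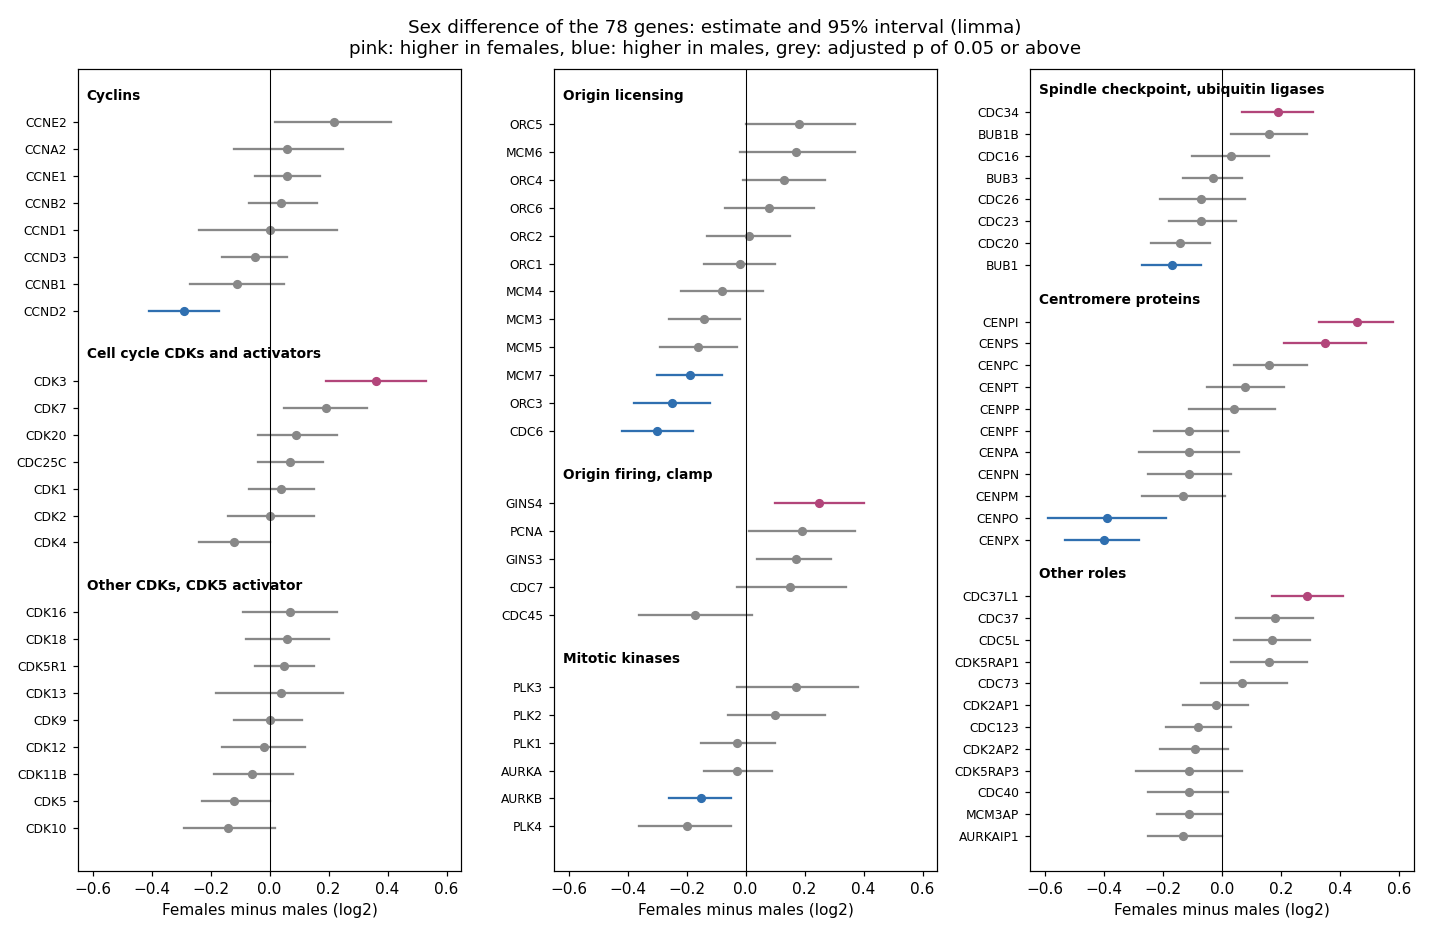
Difference between females and males for each of the 78 genes, in log2, ordered by role; points are limma's estimates over 9 arrays per sex and lines are 95% intervals. The 6 pink genes were higher in females, the 8 blue ones higher in males, and the estimates of the 64 grey ones lie between -0.20 and 0.22.

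Among 8 cyclins, CCND2 was the one called. CCND2 is a D cyclin, a partner of CDK4 and CDK6 in G1. Its log2 signal was between 9.96 and 10.27 in females, with a median of 9.99, and between 10.14 and 10.51 in males, with a median of 10.30. Of the female arrays 8 stood below every male array, and the one that reached into the male range was bull 1 replicate 3, one of the arrays of wide spread. Males were higher by 1.22-fold (-0.29 log2, SE 0.06, adjusted p = 0.00124). Without bull 2 it no longer passed (adjusted p = 0.0787, with a range of 1.59e-05 to 0.0787 over the alternatives). The sister cyclins CCND1 and CCND3 were not called, with differences of -0.00 (95% interval -0.24 to 0.23) and -0.05 (-0.16 to 0.06). Probe set means of the cyclins ran from 4.72 for CCND1 to 10.64 for CCNB1, but signals of different probe sets do not rank transcripts.

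The cyclins of later phases were not called either. CCNE2, which opens S phase with CDK2, stood at 7.50 ± 0.19 in females and 7.28 ± 0.25 in males (SD, n = 9), the largest estimate toward females among the members not called (0.22, 95% interval 0.02 to 0.41, adjusted p = 0.131). Its relative CCNE1 had 0.06 (-0.05 to 0.17), and the S and G2 cyclin CCNA2 had 0.06 (-0.12 to 0.25). The mitotic cyclins CCNB1 and CCNB2 had -0.11 (-0.27 to 0.05) and 0.04 (-0.07 to 0.16). For the brightest probe sets of the 64 members not called, the intervals, unadjusted and taken gene by gene, reached at most 1.33-fold. Dimmer probe sets can go beyond this, as 1 of CDK5R1 did (0.43, 95% interval 0.24 to 0.61).

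Of 7 cell cycle CDKs and their activators, CDK3 was higher in females. CDK3 is a kinase tied to the exit from quiescence. It ran from 6.60 to 7.17 in females, with a median of 6.87, and from 6.12 to 7.01 in males, with a median of 6.51. The sexes overlapped, since male bull 3 replicate 3, one of the arrays of wide spread, read 7.01 while the other males reached 6.64. The difference was 0.36 log2 (SE 0.08, 1.28-fold, adjusted p = 0.00419), and the gene lost its call without bull 1 (adjusted p = 0.0874, the highest of the alternatives, with 0.00101 the lowest). CDK1, the kinase of mitosis, stood at 10.97 ± 0.05 and 10.93 ± 0.13, a difference of 0.04 (95% interval -0.07 to 0.15). CDK2 had 0.00 (-0.14 to 0.15), CDK4 had -0.12 (-0.24 to -0.00), and the phosphatase CDC25C, which activates CDK1, had 0.07 (-0.04 to 0.18). CDK7, the kinase that activates other CDKs, came near the threshold at 0.19 (SE 0.07, adjusted p = 0.058) and passed it in 9 of the 13 alternatives other than those without 1 array.

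None of the 9 other CDK genes was called, and their differences lay between -0.14 and 0.07 log2. They include CDK9, CDK12 and CDK13, which act on RNA polymerase II, and the X-linked CDK16, which had 0.07 (95% interval -0.09 to 0.23). Of the brightest probe sets of 297 X-linked genes, 70.0% were higher in females, and CDK16 is one of 2 X-linked members. CDK5R1, the activator of CDK5, is uncertain. Its 3 bright probe sets, with means of 12.97 to 13.18, gave 0.01 to 0.07 log2, and a dimmer one with a mean of 7.60 was called higher in females (0.43, adjusted p = 0.00212).

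Origin licensing held 3 genes higher in males, out of 12, where 7.47% of all probe sets and 9.31% of the brightest ones were higher in males. The group's median difference was -0.048 log2. CDC6, the loader of the MCM helicase, was between 5.66 and 6.17 in females (median 6.03) and between 6.10 and 6.55 in males (median 6.26). Of the male arrays 8 stood above the highest female array, and the lowest females were the 3 of bull 1. The difference was -0.30 log2 (SE 0.06, 1.23-fold, adjusted p = 0.0013), and a second probe set was also called (-0.21, adjusted p = 0.0289). Without bull 1 the gene missed the threshold (adjusted p = 0.0719, with 0.000487 as the lowest of the alternatives).

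ORC3, a subunit of the origin recognition complex, did not overlap between the sexes. Females ran from 7.36 to 7.61 (median 7.57) and males from 7.64 to 8.11 (median 7.72). The highest male was bull 1 replicate 2, an array of wide spread. Males were higher by 1.19-fold (-0.25 log2, SE 0.06, adjusted p = 0.00831), and the call was lost without bull 2 or bull 3 (adjusted p = 0.0547 and 0.0664, in a range of 0.00242 to 0.0664). Of the 78 genes 4 showed no overlap between the sexes (5.13%), against 2.92% of all probe sets and 4.51% of the brightest ones. The others were CENPI, CENPX and CDC37L1.

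MCM7, a subunit of the helicase, was between 10.08 and 10.38 in females (median 10.24) and between 10.29 and 10.55 in males (median 10.50). The males of bull 2 were nearly identical, at 10.52, 10.52 and 10.53. The difference was -0.19 log2 (SE 0.05, 1.14-fold, adjusted p = 0.0153), and it was alike in the 3 bulls at -0.17, -0.19 and -0.21. It did not pass without bull 2 or bull 3 or with bull as the replicate (adjusted p = 0.145, 0.108 and 0.0663, in a range of 0.00257 to 0.145).

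Within a complex the estimates pointed both ways. MCM3, MCM4 and MCM5 had estimates of -0.14, -0.08 and -0.16 log2 and MCM6 of 0.17, none of them called (adjusted p = 0.0845 to 0.515). That of MCM6 was 0.10 without male bull 1 replicate 2, its lowest array, and its second probe set gave -0.01. Of the other ORC genes, ORC1 and ORC2 had -0.02 and 0.01, and ORC4, ORC5 and ORC6 had 0.13, 0.18 and 0.08, also not called.

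Of the 5 genes of origin firing and the replication clamp, GINS4 was higher in females. GINS4 is a subunit of the GINS complex, which joins CDC45 and MCM in the working helicase. Its signal ran from 6.89 to 7.34 in females (median 7.19) and from 6.50 to 7.23 in males (median 6.98), so the ranges overlapped widely. The difference was 0.25 log2 (SE 0.07, 1.19-fold, adjusted p = 0.0232). The call was lost without any single bull (adjusted p = 0.0565, 0.201 and 0.0783), without the arrays of wide spread (0.0508), without male bull 2 replicate 1 (0.051) and without female bull 2 replicate 3 (0.0511), in a range from 0.00622 to 0.201. Its partner GINS3 had 0.17 (95% interval 0.04 to 0.29, adjusted p = 0.0718), and CDC45 had -0.17 (-0.36 to 0.02).

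PCNA, the sliding clamp that is widely used to mark dividing cells, was not called. It read between 11.18 and 11.36 in females (median 11.31) and between 10.48 and 11.33 in males (median 11.12). The lowest value came from male bull 1 replicate 2, and the other 8 males were at or above 11.04. On that array MCM6 was at 9.62 and CCNE2 at 6.82, each the lowest of the 18 arrays. The next lowest MCM6, 9.81, was on male bull 3 replicate 3, also of wide spread. The difference in PCNA was 0.19 log2 (95% interval 0.01 to 0.37, adjusted p = 0.163), and 0.10 without that array (adjusted p = 0.187). MCM6 and CCNE2 had 0.10 and 0.14 without it. MKI67 and TOP2A, which are also used as marks of division, were planned to be named as well, but no values are given for them here.

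**Figure D2:**
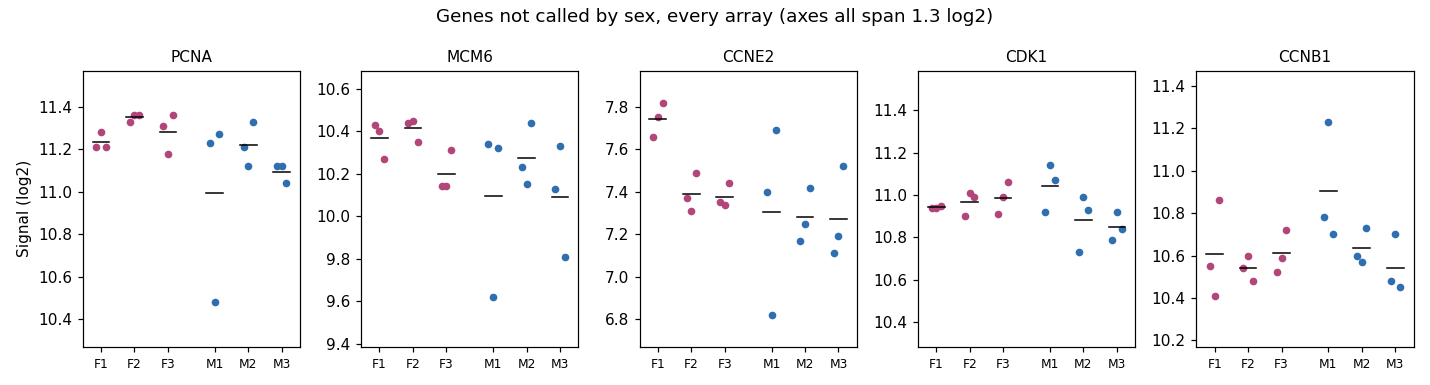
Log2 signal on every array for PCNA, MCM6, CCNE2, CDK1 and CCNB1, none of them called by sex; F and M are females and males, 1 to 3 the bulls, and a line is the mean of 3 arrays. The male array of bull 1 at 10.48 for PCNA is the same as that at 9.62 for MCM6 and at 6.82 for CCNE2, and it has the highest CCNB1 of all arrays, 11.23.

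The departures of the arrays from their group means were set side by side. Over 18 arrays PCNA was most like MCM6 among the other members, with Pearson's r = 0.87, followed by CCNE2, GINS3, CDK5R1 and ORC4 with 0.77 to 0.47. These are descriptions, and they rest in part on 1 array. Without male bull 1 replicate 2 the value was 0.65 for MCM6 and 0.13 for CCNE2. The genes most like CENPI were ORC4 and BUB1, with r = 0.71 and 0.65, then CCNE2, CDK5RAP3 and CCNA2 with 0.49 to 0.48. Spearman's values for ORC4 and BUB1 were 0.56 and 0.71. CENPI and ORC4 were both at the lowest of their sex on male bull 1 replicate 2 (7.09 and 6.73). The same held on female bull 1 replicate 3 (7.68 and 6.81). Both arrays are of wide spread, and the likeness to CENPI without them was not computed.

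Of 6 mitotic kinases, AURKB was called, and barely. AURKB is the kinase of the chromosomal passenger complex, which corrects faulty attachments to the spindle. It ran from 9.21 to 9.38 in females (median 9.29) and from 9.34 to 9.63 in males (median 9.44). The highest male was bull 1 replicate 2, and the other males lay within 0.13 of each other, from 9.34 to 9.47. The difference was -0.15 log2 (SE 0.05, 1.11-fold, adjusted p = 0.0478), and a second probe set gave -0.25 (adjusted p = 0.0416). The first lost its call in 16 of 18 fits without 1 array (0.056 to 0.101), the exceptions being male bull 1 replicate 3 and male bull 3 replicate 3, without each bull (0.285, 0.171 and 0.128) and with bull as the replicate (0.163), in a range from 0.00758 to 0.285.

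AURKA and PLK1, the kinases of spindle poles and mitotic entry, had differences of -0.03 (95% interval -0.14 to 0.09) and -0.03 (-0.15 to 0.10). PLK4, which starts the copying of centrioles, had -0.20 (SE 0.07, adjusted p = 0.0673), the largest estimate toward males among members not called. It was followed by CDC45, MCM5 and CDC20, at -0.17, -0.16 and -0.14.

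Of 8 genes grouped as spindle checkpoint and ubiquitin ligases, BUB1 was higher in males and CDC34 in females. BUB1, a kinase at unattached kinetochores, ran from 8.30 to 8.58 in females (median 8.48) and from 8.46 to 8.82 in males (median 8.65). Its 3 females of bull 1 were the lowest of all arrays, at 8.31, 8.33 and 8.30. The difference was -0.17 log2 (SE 0.05, 1.13-fold, adjusted p = 0.0202). It missed the threshold without each bull (0.111, 0.205 and 0.0551), with bull as the replicate (0.0966) and as the mean over both probe sets (0.0701), in a range from 0.00325 to 0.205.

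CDC34, the ubiquitin-conjugating enzyme of the SCF ligases, ran from 9.19 to 9.49 in females (median 9.40) and from 9.02 to 9.39 in males (median 9.19). The lowest female, bull 1 replicate 1, sat at the male median. The difference was 0.19 log2 (SE 0.06, 1.14-fold, adjusted p = 0.0321). It lost its call without each bull (0.0979, 0.159 and 0.145), with bull as the replicate (0.0684), and also in 10 of 18 fits without 1 array (0.054 to 0.0711), those without female bull 1 replicates 2 or 3, female bull 2 replicates 2 or 3, female bull 3 replicates 1 or 3, male bull 1 replicate 3, male bull 2 replicates 2 or 3, or male bull 3 replicate 2, in a range of 0.00834 to 0.159. The checkpoint genes BUB1B and BUB3 had 0.16 (95% interval 0.03 to 0.29, adjusted p = 0.106) and -0.03 (-0.13 to 0.07). CDC20, which the checkpoint restrains, had -0.14 (SE 0.05, adjusted p = 0.0641).

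The 11 centromere proteins held the largest differences in both directions, with 2 higher in females and 2 in males. Over the whole array 15.6% of all probe sets and 20.8% of the brightest ones were called. The largest difference toward females was that of an X-linked gene, CENPI. Among autosomal members it was that of CDK3, at 0.36 log2, next to 0.35 for CENPS. CENPI, an X-linked member of the inner kinetochore that takes part in loading the centromeric histone CENPA, was between 7.68 and 7.94 in females (median 7.89) and between 7.09 and 7.63 in males (median 7.39). Every female array was above every male array. Females were higher by 1.37-fold (0.46 log2, SE 0.06, adjusted p = 2.15e-05), and a second probe set gave 0.37 (adjusted p = 0.0251). The median X-linked gene was higher in females by 0.438 log2, so CENPI lay close to it.

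CENPS and CENPX are small histone-fold proteins that bind each other, at the kinetochore and in the repair of stalled forks, and they were called in opposite directions. CENPS ran from 9.94 to 10.25 in females (median 10.10) and from 9.49 to 10.17 in males (median 9.71). Its highest male was bull 1 replicate 2, while the males of bulls 2 and 3 were at or below 9.76. The difference was 0.35 log2 (SE 0.07, 1.27-fold, adjusted p = 0.00123), and it missed the threshold without bull 3 (0.0934, in a range of 3.46e-05 to 0.0934).

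CENPX ran from 8.52 to 8.87 in females (median 8.65) and from 8.96 to 9.24 in males (median 9.06). The sexes did not overlap on any array. Males were higher by 1.32-fold (-0.40 log2, SE 0.06, adjusted p = 0.000104). Each of the pair has 1 probe set, and both are autosomal.

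CENPO, a subunit of the inner kinetochore, was higher in males by 1.31-fold (-0.39 log2, SE 0.10, adjusted p = 0.00897). Females ran from 5.26 to 5.81 (median 5.58) and males from 5.46 to 6.18 (median 5.99). The males of bull 3 split, with 5.49, 6.18 and 5.46. The call was lost without bull 1 or bull 2 (0.108 and 0.124, in a range of 0.00179 to 0.124), and a second, dim probe set with a mean of 2.30 was not called. The other 7 centromere genes were not called, with CENPA at -0.11 (95% interval -0.28 to 0.06), CENPF at -0.11 (-0.23 to 0.02) and CENPC at 0.16 (0.04 to 0.29). A dimmer probe set of CENPF, a protein of the outer kinetochore, was called higher in males (-0.23, adjusted p = 0.0254).

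**Figure D3:**
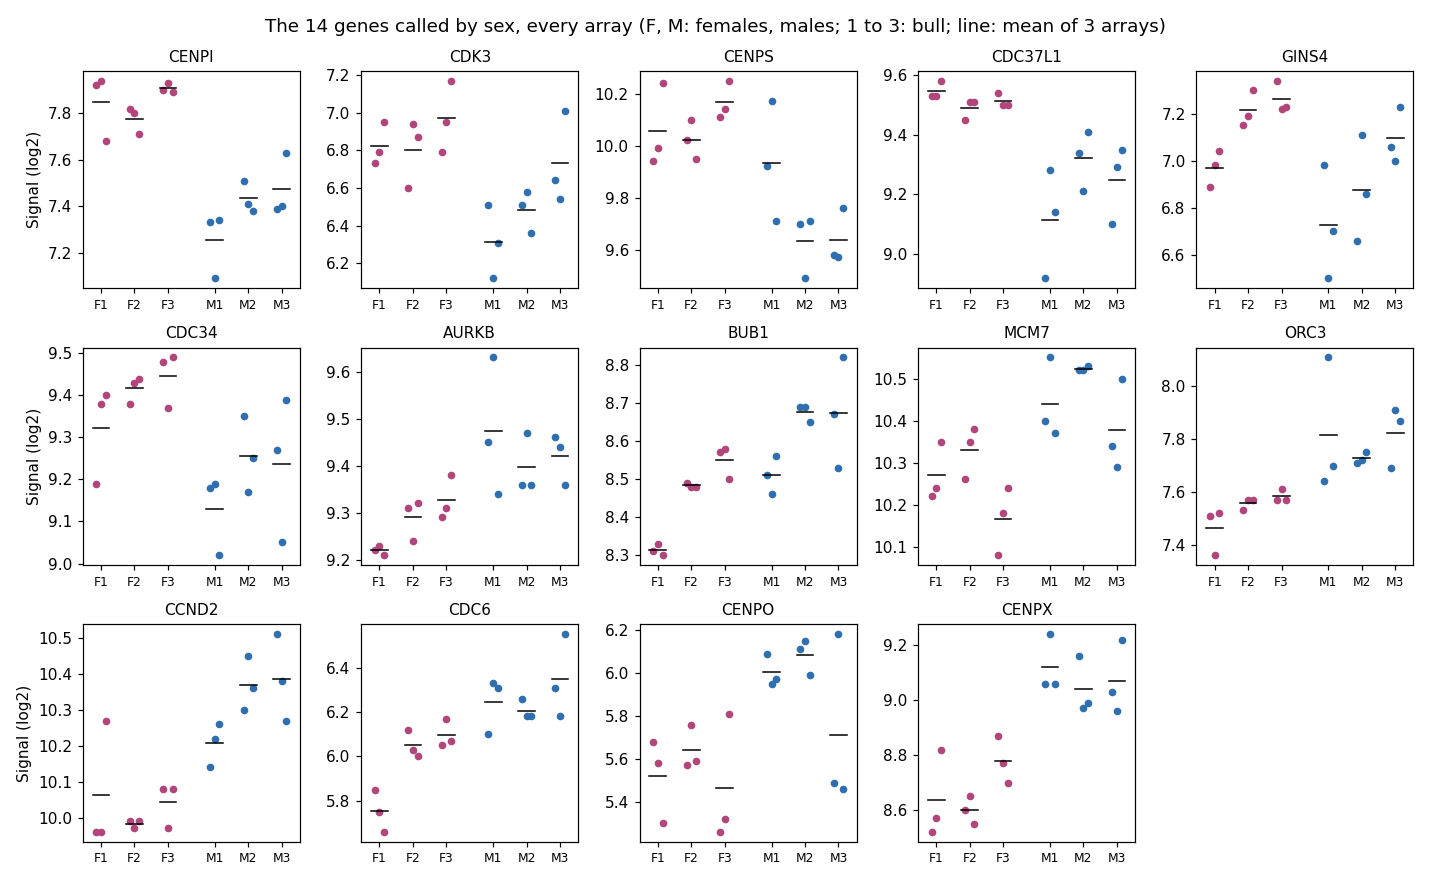
Log2 signal on every array for the 14 genes called by sex, with females in pink, males in blue, the bulls numbered 1 to 3 and a line at the mean of 3 arrays; each panel has its own axis. For CENPI, CENPX, CDC37L1 and ORC3 no array of one sex reaches the range of the other, while for CDK3, GINS4 and CENPS at most 3 arrays of the higher sex stand above all arrays of the other.

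Among the 12 genes that share a symbol but act elsewhere, CDC37L1, a relative of the HSP90 cochaperone CDC37, was called. It was between 9.45 and 9.58 in females (median 9.51) and between 8.92 and 9.41 in males (median 9.28). The females lay within a band much narrower than that of the males, with SDs of 0.04 and 0.15. Females were higher by 1.22-fold (0.29 log2, SE 0.06, adjusted p = 0.00137), and a second probe set gave 0.27 (adjusted p = 0.0101). CDC37 itself had 0.18 (95% interval 0.05 to 0.31, adjusted p = 0.0632) and passed in 8 of the 13 alternatives other than those without 1 array. The splicing factors CDC5L and CDC40, the polymerase-associated CDC73 and the export factor MCM3AP were not called. Of the 14 called members, 6 have another probe set, and it was also called for 4 of them, AURKB, CDC6, CDC37L1 and CENPI.

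Within single bulls, 3 arrays stood against 3, and fewer members passed. In bull 1, 5 members differed, CDK3, CENPI and CDC37L1 higher in females and CENPX and CDC6 higher in males, a share of 6.41% against 4.20% of all probe sets and 6.03% of the brightest ones. In bull 2 these were CENPX and CCND2, both higher in males, against 3.13% of all probe sets and 4.59% of the brightest, and in bull 3 CENPI and CENPS, both higher in females, against 4.18% and 5.92%. All 14 genes called over the bulls had the same sign in the 3 bulls, which is in part a result of their choice. CENPS had 0.12, 0.39 and 0.53 log2 in bulls 1, 2 and 3, and CDC6 had -0.49, -0.16 and -0.25. CENPI had 0.59, 0.34 and 0.43, and CENPX had -0.48, -0.44 and -0.29.

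These counts turned on single arrays. That of bull 1 was 3 without its female replicate 1 or 3. That of bull 2 was 0 without any of its females or its male replicate 1, 1 without its male replicate 2 or 3, and 4 without male bull 1 replicate 2. That of bull 3 was 0 without its male replicate 1 or female replicate 3, and 1 without its female replicate 1 or 2.

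Whether the sex difference itself differed between the bulls was tested as an interaction. No member was called by limma, and 1, CENPN, fell under 0.05 before adjustment. Over all probe sets limma called 0.00%, with 656 of 24016 at an unadjusted p under 0.05. The differences between bulls for CENPS and CDC6 were therefore not past the threshold.

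**Figure D4:**
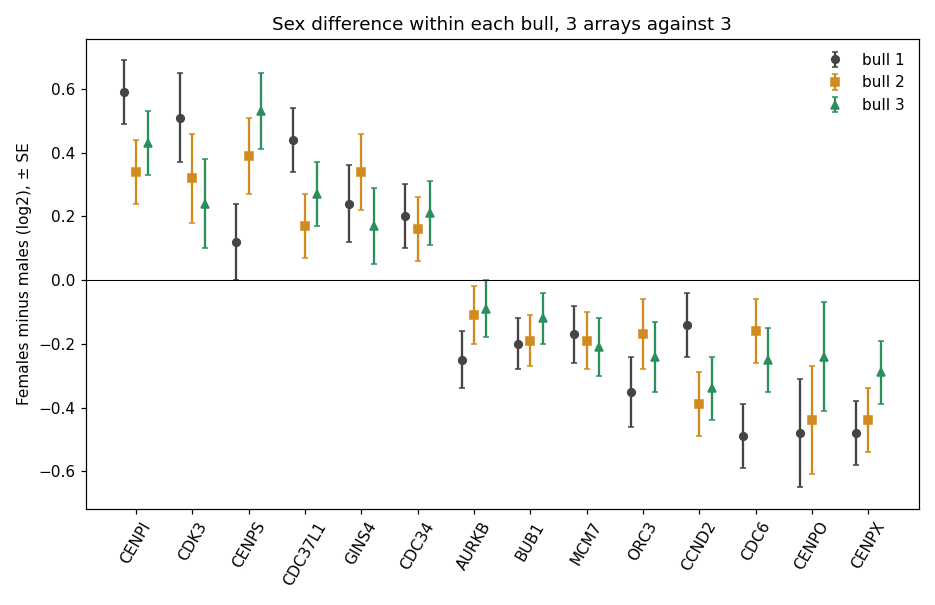
Difference between females and males within each bull for the 14 genes called by sex, in log2, with limma's standard errors, 3 arrays against 3. The points of a gene lie on the same side of 0, and those of CENPS run from 0.12 in bull 1 to 0.53 in bull 3.

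Between the bulls, few members differed. A bull cannot be told apart from a batch of production or scanning that its arrays may share. Cell markers differed between bulls as well. POSTN and DCN were higher in bull 2 than in bull 1 (2.16 and 0.84 log2, adjusted p = 0.0197 and 0.00383). CYP19A1 was lower in bulls 2 and 3 than in bull 1 (-0.49 and -0.40, 0.03 and 0.0437), and SOX2 was higher in bull 3 than in bull 1 (0.44, 0.0283). The part of such cells in the differences between bulls was not tested. CENPC, which anchors the kinetochore to centromeric chromatin, was highest in bull 1. It ran from 6.11 to 6.30 on the 6 arrays of bull 1, from 5.66 to 6.02 in bull 2 and from 5.57 to 5.99 in bull 3. Bull 1 did not overlap with either of the other bulls, and the lowest arrays of bulls 2 and 3 were males. The difference was -0.34 log2 for bull 2 minus bull 1 (SE 0.07, adjusted p = 0.024) and -0.37 for bull 3 minus bull 1 (SE 0.07, adjusted p = 0.0103). It was the only member called between bulls 2 and 1, where 1.52% of all probe sets and 2.04% of the brightest ones were called. That call was lost without the arrays of wide spread (0.1) and without female bull 1 replicate 3 (0.0656), female bull 2 replicates 1 or 2 (0.0642 and 0.064) or male bull 2 replicates 1 or 2 (0.0613 and 0.0537), in a range of 0.0104 to 0.1.

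Between bulls 3 and 1, 3 members were called, where 3.53% of all probe sets and 3.60% of the brightest ones were. Besides CENPC they were GINS4, at 7.18 ± 0.13 in bull 3 and 6.85 ± 0.21 in bull 1 (SD, n = 6, 0.33 log2, adjusted p = 0.043), and CDC73, a subunit of the PAF1 complex of transcription, at 9.03 ± 0.16 and 9.35 ± 0.15 (-0.33 log2, adjusted p = 0.0422). CENPC held in each of 18 fits without 1 array, while GINS4 lost its call in 14 of them (adjusted p = 0.0545 to 0.117), the exceptions being male bull 1 replicate 1, male bull 2 replicates 1 and 2 and male bull 3 replicate 2. CDC73 lost its call in 13 (adjusted p = 0.0535 to 0.113), the exceptions being male bull 1 replicate 1, female bull 1 replicate 2, male bull 2 replicates 1 and 3 and male bull 3 replicate 2. All 3 lost it without the arrays of wide spread (0.066 for CENPC, 0.0959 for GINS4 and 0.18 for CDC73). Without 1 array the count ran from 1 to 6. That count was 1 without any array of bull 3 other than male replicate 2, without any of bull 1 other than female replicate 2 and male replicate 1, and without any female array of bull 2, and it was 6 without male bull 3 replicate 2. Of 37 dimmer probe sets of the members, 6 were called between bulls 3 and 1, against the 3.53% of all probe sets. Each was of a gene whose brightest probe set was not called. In 5 of them the sign was opposite to that of the brightest one. BUB1 had -0.64 on the dimmer probe set (adjusted p = 0.0211) and 0.20 on the brightest, ORC5 had -0.54 (0.035) and 0.24, CDK5RAP1 had -0.50 (0.0368) and 0.12, CDK20 had -0.34 (0.048) and 0.20, and CDK7 had 0.39 (0.0233) and -0.22. ORC6 had -0.69 (0.0313) and -0.25. The second probe set of CENPC, with a mean of 3.85, had -0.23 and was not called (adjusted p = 0.118). The values of these 6 genes between bulls 3 and 1 are therefore uncertain.

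Between bulls 3 and 2 no member was called (9 had an unadjusted p under 0.05 in limma's test), where 3.74% of all probe sets and 3.33% of the brightest ones were, and array weights called 5. Of the dimmer probe sets 2 were called, those of CENPI and CENPN (-0.50 each, adjusted p = 0.0465 and 0.0294), while the brightest ones had 0.09 and 0.11.

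The bulls also differed in a measure of RNA quality. The 5′ minus 3′ signal of the control transcripts for actin, GAPDH and EF1A ran from -0.441 to 0.447 log2 in bull 1 and from -1.268 to -0.359 in bull 3. With that measure as a covariate none of the 3 members was called between bulls 3 and 1 (adjusted p = 0.813 for CENPC, 0.963 for GINS4 and 0.985 for CDC73). The estimates were then -0.23 log2 for CENPC, 0.12 for GINS4 and -0.08 for CDC73. Over the alternatives the lowest adjusted p of these 3 members was 0.00168, 0.0176 and 0.00925. The measure overlapped little between bulls 1 and 3, so that it and the bull are hard to tell apart in that fit. The share of all probe sets called between these bulls in that fit is not given here. By sex the measure had medians of -0.359 in females and -0.333 in males, and with it as a covariate all 14 members remained called, in a total of 18.

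**Figure D5:**
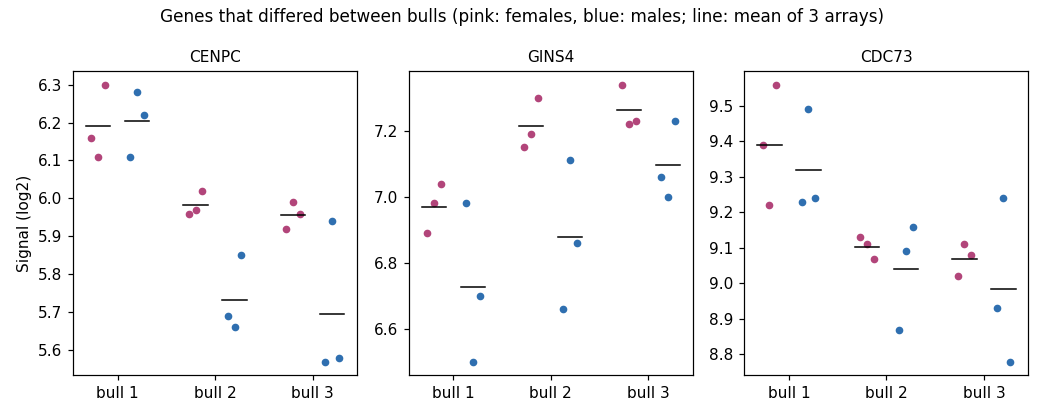
Log2 signal on every array for CENPC, GINS4 and CDC73, the 3 members that differed between bulls, with females in pink, males in blue and a line at the mean of 3 arrays. CENPC in bull 1 lies at or above 6.11 and in the other bulls at or below 6.02.

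The rest of the cell cycle, 109 measured genes of a list of 163, was read in the same way. Of these 14 differed by sex, 6 higher in females and 8 in males, or 12.8%, which is below the 15.6% of all probe sets and the 20.8% of the brightest ones. The median difference was -0.024 log2. Among 18 CDK inhibitors and genes of the RB and E2F pathway, CDKN1A, the p21 inhibitor of CDKs, had the largest difference. It was 8.24 ± 0.15 in females and 7.68 ± 0.18 in males (SD, n = 9, 1.48-fold, adjusted p = 2.75e-05). LIN37, a subunit of the DREAM repressor complex, was higher in females (0.31 log2), and TFDP2, the partner of E2F, and MYBL2, an activator of mitotic genes, were higher in males (-0.22 and -0.20).

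Of 34 genes of DNA synthesis, 3 differed. The X-linked POLA1, the catalytic subunit of the primase-polymerase, was higher in females (0.32), and RFC2, a subunit of the clamp loader, and POLD3, a subunit of polymerase delta, were higher in males (-0.27 and -0.16). Of 25 genes of the spindle, KNTC1, which brings dynein to kinetochores, was higher in males by 1.47-fold, at 6.49 ± 0.29 against 5.94 ± 0.16 (adjusted p = 0.000333), and SPC24 was higher in males as well (-0.25). KIF4A, an X-linked chromosome kinesin, was higher in females by 1.38-fold (adjusted p = 9.85e-06), as were NDC80 (0.26) and SPDL1 (0.19). NDC80 and SPC24 are subunits of the same microtubule-binding complex.

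Of 25 genes of the anaphase-promoting complex, SCF and cohesin, ANAPC7 was called (-0.22), and of 7 genes of the DNA damage checkpoint H2AX, the histone that marks breaks, was called at -0.37 (adjusted p = 8.68e-05). H2AX belongs to a family of similar histone genes and is uncertain. The calls of CDKN1A, H2AX, KIF4A, KNTC1, POLA1 and RFC2 held in all 31 alternatives, and each of the other 8 genes lost its call in at least 1 fit without a bull. Among fits that left out a single array, POLD3 missed the threshold in 8 (adjusted p = 0.0526 to 0.0751), those without any female of bull 2, male bull 2 replicates 2 or 3, female bull 1 replicate 2 or replicate 3 of either sex of bull 3. SPC24 missed it without replicate 1 of the females of bulls 1 and 2 or of the males of bull 2, or without female bull 3 replicate 3 (0.0524 to 0.062). SPDL1 missed it without male bull 1 replicate 1, replicate 2 of either sex of bull 2 or female bull 3 replicate 3 (0.0507 to 0.0591).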

How the data were processed

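Per the labels' protocols, 50 ng of RNA from each of 18 pools was amplified and hybridised to an Affymetrix array. The authors deposited log2 signals; that scale was read from their range, 1.89 to 14.15. RMA and Partek 6.4 are named in the submitters' processing notes, with no roles given. Where arrays were quantile normalized, as RMA usually does, a change common to all transcripts is removed. The number of arrays sets the precision, and a genome build is not given in the sources used here.

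Control probe sets (112) were left out. Of 24016 probe sets, 13292 had 1 listed gene, 86 several and 10638 none. Symbols of all 78 members were checked by gene number in RefSeq (assembly ARS-UCD2.0), which also gave X linkage. A mean for each of 6 groups was fitted by lmFit and eBayes (limma 3.58.1, R 4.3.3), with Benjamini-Hochberg adjustment over all probe sets; intervals of 95% are unadjusted and folds are anti-logs of the differences. The members and lists were chosen with earlier results of these data known. Genes were named by a rule: those called, the 4 largest estimates per direction among the rest, the highest and lowest mean per role, proliferation markers and the smallest interaction p. Further members named for context were picked after their values were seen. The steps were tested on simulated data. Alternatives were the sample number as a block, each array or bull left out, quantile normalization, the brighter 50% of probe sets, 1 probe set or the mean per gene, array weights, an additive model and bull as the replicate. The fits without 4 arrays of wide spread and with the 5′ to 3′ covariate were chosen after seeing the data.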

Additional observations from a re-analysis of the deposited data

Results flagged for a closer look

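In 4 of 35 groups of 6 or 9 arrays of called genes, 1 array stood apart by Dixon's test at the 95% level, which chance gives in about 1 of 20 groups. CCND2 was at 10.27 in female bull 1 replicate 3, with the next female at 10.08. AURKB was at 9.63 in male bull 1 replicate 2, with the next male at 9.47. ORC3 was at 7.36 in female bull 1 replicate 2, with the next female at 7.51. CDC34 was at 9.19 in female bull 1 replicate 1, with the next female at 9.37. All 4 arrays are of bull 1.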

How the results depend on the processing

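None of the called genes named changed direction in the alternatives; the direction of genes that were not called was not followed. The 14 members called by sex became 6 without bull 2, 7 without bull 3, 23 in the brighter 50% of probe sets, 26 with array weights and 22 without 4 arrays of wide spread. Without 1 array the count was 11 to 18. Within bull 2 the 2 calls became 1 with the sample number as a replicate block and 4 in the brighter 50% of probe sets, with 1 probe set per gene, with array weights and without the arrays of wide spread, and within bull 3 the 2 became 8 with array weights. Without 1 array the counts within bulls 1, 2 and 3 were 3 to 6, 0 to 4 and 0 to 3. The interaction stayed at 0 in every fit without 1 array. The 1 call between bulls 2 and 1 became 2 with array weights and 0 without the arrays of wide spread (0 to 2 without 1 array). The 3 between bulls 3 and 1 became 1 with the replicate block (GINS4 and CDC73 were lost, adjusted p = 0.0643 and 0.056), 8 in the brighter 50%, 8 with array weights, 1 without the arrays of wide spread and 0 with the 5′ to 3′ covariate (1 to 6 without 1 array). The 0 between bulls 3 and 2 became 1 in the brighter 50% and 5 with array weights (0 to 1 without 1 array). The 14 other cell cycle genes became 7 without bull 2 and 9 without bull 3 (11 to 15 without 1 array). The causes were not tested, but fits without a bull have fewer samples. The share of all probe sets called in each fit is not given here, so these counts do not set the members apart from other genes. Sample numbers did not pair the arrays: deviations of the female and male with the same number in a bull correlated at -0.181 to 0.103, and the replicate block left 13 members called by sex, AURKB being lost (adjusted p = 0.0665), as was POLD3 among the other cell cycle genes (0.0502). Dim probe sets such as CENPA, CCND1 and CDC7, with means under 5, limit what can be seen of these genes.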
